A study of Mus musculus with 531 samples.

Results

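Transcripts of Dppa2, Dppa4, Dppa5a, Tcl1 and Ube2dnl1, 5 of the 22084 genes in the count table, were followed in single cells of C57Bl/6Babr mouse embryos between implantation and gastrulation. These genes were chosen by their measured levels in these cells by stage, embryo and lineage, so their levels are given as a description with no test. RNA was read by Smart-seq2, a full-length method, beside bisulfite sequencing of DNA from the embryo cells, which was not analysed here. At embryonic day (E) 4.5 there were 91 cells of 5 embryos, at E5.5 there were 80 cells of 1 embryo, and at E6.5 there were 93 cells of 2 embryos. Of these 264 cells, the 217 with at least 50000 counted reads and 2000 genes were kept (75, 59 and 83), with a median of 1133899 reads and a range from 112008 to 8904445. The trophectoderm had been removed from the E4.5 embryos and extraembryonic tissue had been dissected away at the later stages. The embryo is the replicate. The cell names carry 5 embryo numbers at E4.5, whereas the study's own text counts fewer embryos there, so each E4.5 SD and each n of 5 rests on the names. With 1 embryo at E5.5, differences between embryos cannot be told apart from differences between stages there, and the prefixes in the cell names also differ between the stages. The sex of the embryos is not given.

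Dppa2 and Dppa4 encode nuclear proteins with a SAP DNA-binding domain that act as a heterodimer at CpG-rich promoters in pluripotent cells and switch on genes of the totipotent early embryo. Dppa5a encodes an RNA-binding protein with a KH domain and is among the most abundant pluripotency transcripts. Tcl1 encodes a coactivator that binds the kinase Akt and raises its activity, and Ube2dnl1 encodes a little-studied relative of the ubiquitin-conjugating enzymes of the E2 D family. Genes of this kind are used in the early embryo and the germ line, and several are silenced in somatic tissues by DNA methylation.

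Each of these genes lies beside a relative or partner (coordinates on GRCm38, GENCODE). Dppa4 (ENSMUSG00000058550, chr16:48283733-48294237) and Dppa2 (ENSMUSG00000072419, chr16:48303908-48319723) follow each other on the plus strand with 9670 bases between them. Dppa5a (ENSMUSG00000060461, chr9:78367052-78368177, minus strand) has the KH-domain gene Ooep as its nearest coding neighbor. Tcl1 (ENSMUSG00000041359, chr12:105216750-105222793, minus strand) has Tcl1b4 as its nearest coding neighbor, and Ube2dnl1 (ENSMUSG00000050435, chrX:114905012-114905941, plus strand) has Ube2dnl2. No other annotated gene overlapped any of the 5.

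The bases just upstream of Tcl1 and Ube2dnl1 are shown because these were the genes with no read in epiblast-like cells after E4.5. RefSeq promoter entries on GRCm38 matched these 2 of the 5 genes. Each is printed 5′ to 3′ on the strand of its gene, up to the base before the annotated start, with every CpG, the dinucleotide that DNA methyltransferases modify, in capitals:
Tcl1, chr12:105222794-105222987, minus strand: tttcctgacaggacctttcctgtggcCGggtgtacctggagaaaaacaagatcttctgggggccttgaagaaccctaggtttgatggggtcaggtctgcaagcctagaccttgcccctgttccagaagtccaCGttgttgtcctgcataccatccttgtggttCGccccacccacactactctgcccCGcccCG
Ube2dnl1, chrX:114904762-114905011, plus strand: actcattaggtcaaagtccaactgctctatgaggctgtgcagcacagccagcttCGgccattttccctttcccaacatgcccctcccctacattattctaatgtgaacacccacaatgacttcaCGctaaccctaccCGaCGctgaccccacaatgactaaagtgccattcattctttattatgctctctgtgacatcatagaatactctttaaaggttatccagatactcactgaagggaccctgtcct
In the 250 bases before the RefSeq start, Tcl1 had 7 CpGs (5 of them printed) and Ube2dnl1 had 4. Windows of the same length before 27018 genes had a median of 6 CpGs, and 56.6% of them held as few as Tcl1 or fewer, against 44.5% for Ube2dnl1, so neither stood at an end of that range.

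Cells were placed in lineage classes by clustering within each stage, with these 5 genes and the gene lists used below left out, and classes were named by marker genes. At E4.5 there were 24 epiblast-like and 51 endoderm-like cells (primitive endoderm is the other lineage of the inner cell mass), and all 20 clustering seeds gave the same classes. At E5.5, the endoderm-like class was the 8 cells in which Dab2, Cubn, Apoa1 and Amn all reached 10 CPM (reads of a gene scaled by the total of the cell) and the other 51 were epiblast-like. All 8 carried cell numbers that are multiples of 12, which none of the 51 did. At E6.5 there were 31 epiblast-like, 15 endoderm-like, 23 mesoderm-like and 14 unnamed cells. The 23 mesoderm-like cells, all of embryo 2, were found with every seed, but the split of the other 60 cells was the same in only 3 of 20 seeds, and in 1 seed no class was epiblast-like.

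Markers of other lineages were read in several classes. In the E4.5 epiblast-like cells 6 of 13 endoderm markers were read in over 50% of cells, with a summed median of 2431 CPM, against 11 of 13 and 3094 CPM at E6.5 and 1 of 13 and 487 CPM at E5.5. All 31 E6.5 epiblast-like cells had reads of Apoa1, a visceral endoderm transcript (median 919 CPM), against 12 of 51 at E5.5. Of 8 trophoblast markers, 7 were read in over 50% of the E6.5 epiblast-like cells and 0 in the E5.5 ones, with a summed median of 89.5 CPM. All 15 E6.5 endoderm-like cells had reads of the pluripotency factor Pou5f1 (median 139 CPM), while 3 of 8 did at E5.5. The 23 mesoderm-like cells also all had Apoa1 reads (median 383 CPM), and 12 of 13 endoderm markers were read in over 50% of them. The part of this mixing in the E4.5 and E6.5 values was not tested. At E6.5 the 60 cells outside the mesoderm-like class are also given together.

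Across the stages the 5 genes differed in how their level in epiblast-like cells changed, in values given here with no test. Tcl1 and Ube2dnl1 had no read there after E4.5. Dppa5a was lower at each later stage, by 67.2-fold between E4.5 and E6.5, and had reads in every epiblast-like cell. Dppa2 was near 0 in the E6.5 epiblast-like class, while Dppa4 was still read in most cells outside the mesoderm-like class. At E4.5, Ube2dnl1 was almost absent from endoderm-like cells, Dppa2, Dppa4 and Dppa5a were present but mostly lower there, and the Tcl1 levels of the 2 classes overlapped.

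**Figure D1:**
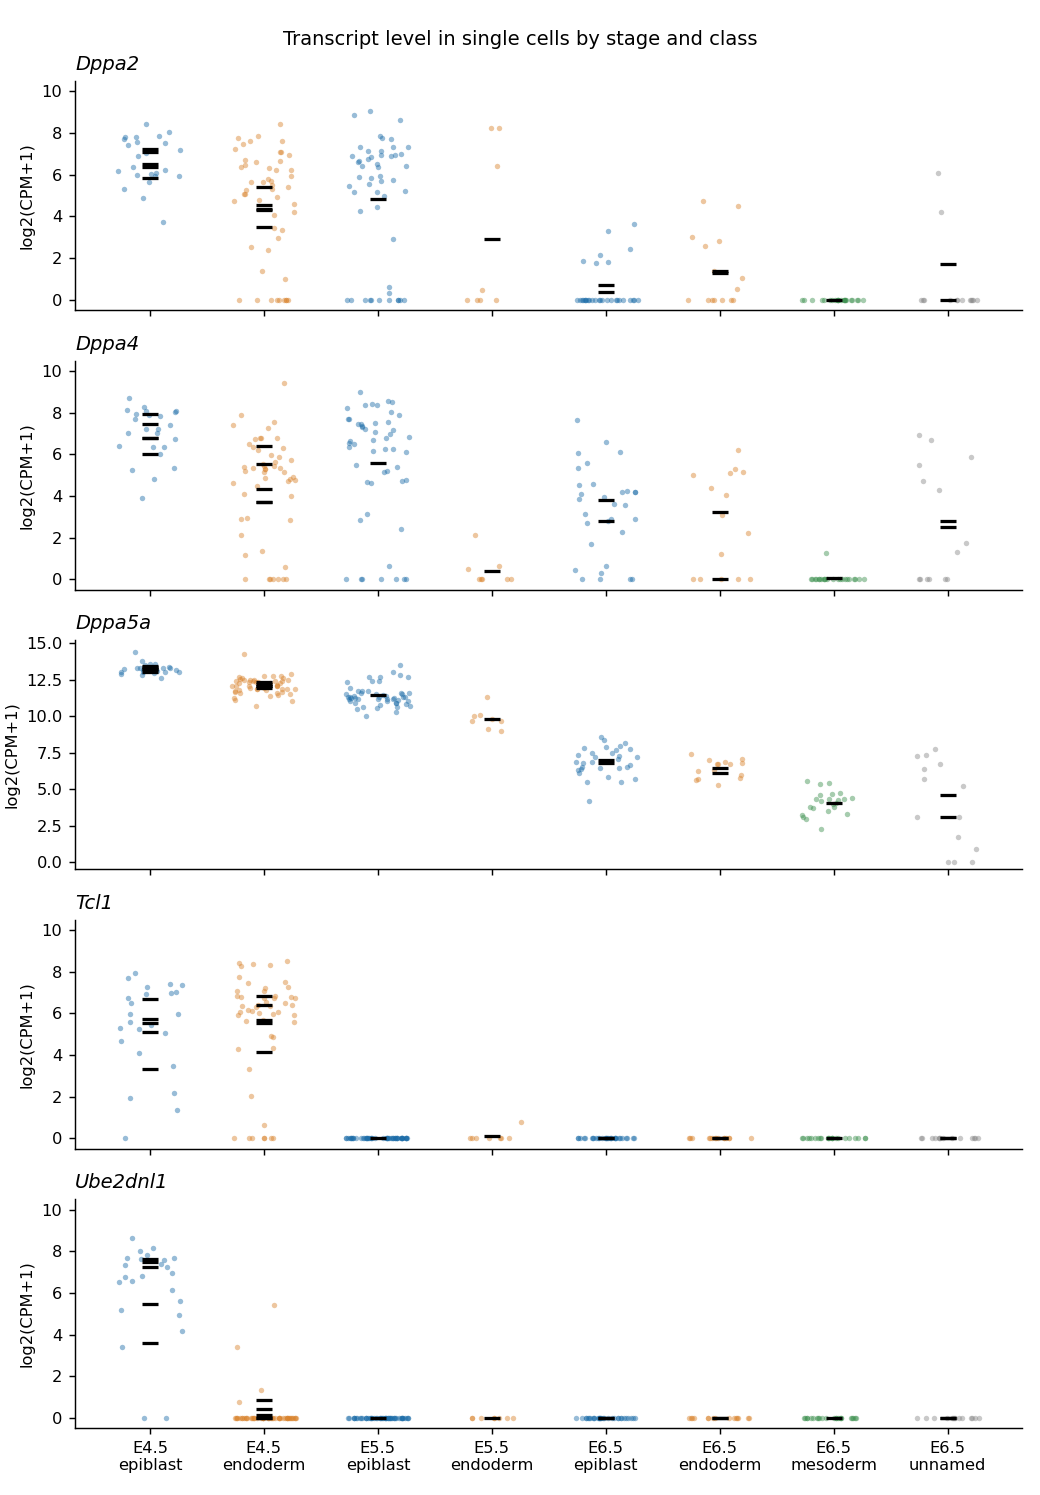
Level of each gene, log2(CPM+1), by stage and class. Dots are single cells and black bars are the means over the cells of each embryo; the scale of Dppa5a reaches higher than the others. Tcl1 and Ube2dnl1 lie at 0 in the epiblast-like cells after E4.5, and Dppa5a steps down from a mean of 13.25 to 6.89 over the epiblast-like classes.

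Dppa5a was the most abundant of the 5. Per kilobase of exon, its mean over the E4.5 embryos was 16508 CPM in epiblast-like cells, against 183 for Ube2dnl1, 96.8 for Dppa4, 51.8 for Dppa2 and 40.1 for Tcl1. The epiblast-like sums held 10770 CPM of Dppa5a in E4.5 embryo 1, 12568 in embryo 2, 8470 in embryo 3, 10094 in embryo 4 and 9189 in embryo 5. They held 3500 CPM in the E5.5 embryo and 144 and 160.2 CPM in the E6.5 embryos. The groups of embryos did not overlap. Relative to the E4.5 mean, the level was 2.92-fold lower at E5.5 and 67.2-fold lower at E6.5.

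The classes were ordered as follows for Dppa5a. As means of embryo means on the log2(CPM+1) scale, E4.5 epiblast-like cells stood highest at 13.25 ± 0.14 (SD, n = 5 embryos), followed by E4.5 endoderm-like cells at 12.10 ± 0.17, E5.5 epiblast-like cells at 11.43 (1 embryo) and E5.5 endoderm-like cells at 9.83 (the same embryo). At E6.5 the epiblast-like embryo means were 6.97 and 6.81, the endoderm-like ones 6.44 and 6.12, the unnamed ones 4.57 and 3.08, and the mesoderm-like cells of embryo 2 stood at 4.07. Neighbors in this order at E4.5 were farther apart than their spread over embryos. The mesoderm-like and unnamed E6.5 classes overlapped. Within E6.5 embryo 2, all 16 epiblast-like and all 23 mesoderm-like cells had Dppa5a reads, and the sums were 160.2 and 21.1 CPM.

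At E4.5 the epiblast-like mean of Dppa5a was above the endoderm-like mean in 5 of 5 embryos, by 1.47, 1.08, 1.02, 0.997 and 1.17 on the log2 scale for embryos 1 to 5. The mean difference was 1.15 ± 0.19 (SD, n = 5). It was 1.27 in the embryos with the name prefix P1 (1 and 2) and 1.06 in those with P2 (3 to 5). The highest endoderm-like embryo mean, 12.32, lay below the lowest epiblast-like one, 13.05.

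Dppa2 and Dppa4, partners in 1 complex, started together. All 24 E4.5 epiblast-like cells had reads of both. The epiblast-like sums of embryos 1 to 5 held 102, 165, 96.3, 188 and 83.1 CPM of Dppa2. For Dppa4 they held 187, 92.5, 154, 127 and 244 CPM. Which embryo was highest differed between the partners: embryo 4 for Dppa2 and embryo 5, the lowest for Dppa2, for Dppa4.

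At E5.5 both partners were still abundant in most epiblast-like cells, with sums of 89.7 CPM for Dppa2 and 114 CPM for Dppa4. These sums lie within the range of the E4.5 embryos, whereas the means of log2(CPM+1) over cells, 4.84 and 5.57, lie below every E4.5 embryo (lowest 5.84 and 6.03). The E5.5 minus E4.5 difference was -1.78 for Dppa2 and -1.42 for Dppa4 as means over cells, and -0.42 for both on summed counts. Dppa2 was read in 40 of 51 cells (78.4%, exact 95% interval 64.7% to 88.7%) and Dppa4 in 44 of 51 (86.3%, 73.7% to 94.3%). Among cells with a read, the mean log2(CPM+1) of Dppa2 was 6.17 at E5.5 and 6.66 at E4.5, and that of Dppa4 6.46 and 6.99. Cells without a read were also cells with fewer genes: a median of 3408 genes against 5727 for Dppa2, and 3039 against 5634 for Dppa4. Among the E5.5 epiblast-like cells with at least 200000 reads and 4000 genes, 86.5% had Dppa2 reads and 94.6% had Dppa4 reads. The part of library complexity in these shares was not tested further.

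At E6.5 the partners differed. Dppa2 sums were 1.23 and 0.55 CPM in the epiblast-like cells of embryos 1 and 2, 142-fold below the E4.5 mean, and 7 of 31 cells had a read (22.6%, 9.59% to 41.1%). Dppa4 sums were 19.4 and 19.8 CPM, 8.20-fold below the E4.5 mean, and 27 of 31 cells had a read (87.1%, 70.2% to 96.4%). Both E6.5 embryos lay below all 5 E4.5 embryos for both genes. Of the 31 cells, 21 had Dppa4 reads only, 6 had both, 1 had Dppa2 only and 3 had neither. At E5.5, by comparison, 35 of 51 cells had both, 9 had Dppa4 only, 5 had Dppa2 only and 2 had neither. With every cell thinned to 50000 reads, 6.45% of E6.5 epiblast-like cells had Dppa2 and 41.9% had Dppa4.

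**Figure D2:**
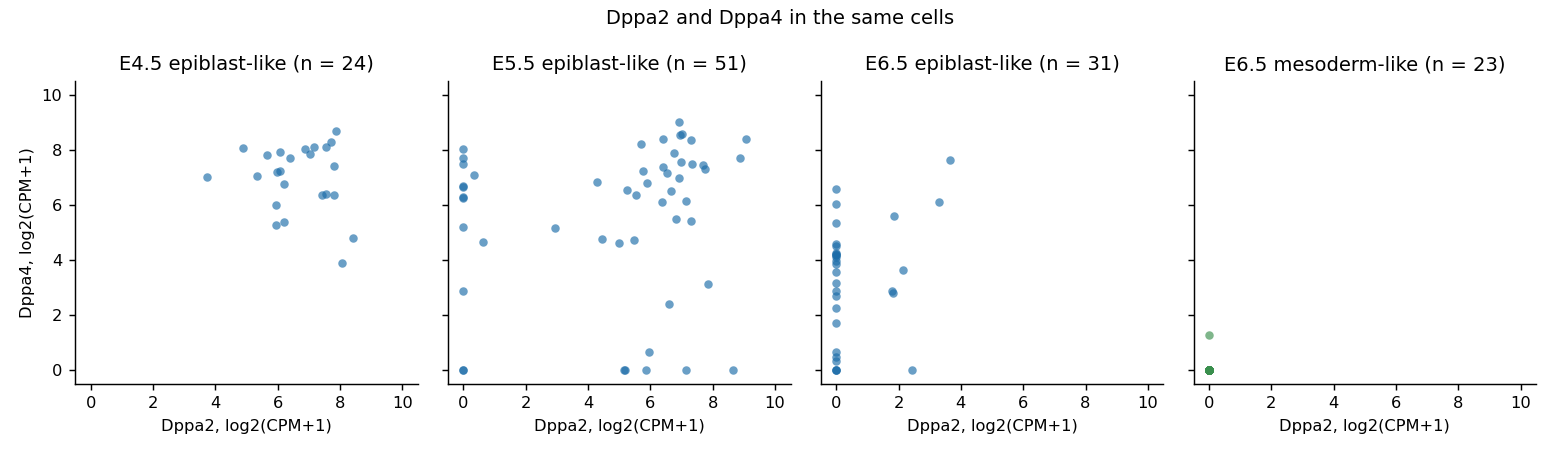
Dppa2 against Dppa4, both as log2(CPM+1), in the same cells of 4 classes; each dot is a cell and cells with no read of either gene lie on top of each other at 0. At E6.5 most epiblast-like cells sit on the left edge, with Dppa4 and without Dppa2, and 22 of 23 mesoderm-like cells sit at the origin.

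Dppa4 also exceeded Dppa2 when the E6.5 cells outside the mesoderm-like class were pooled, but the Dppa2 level depended on the split. The pooled sums of embryos 1 and 2 held 1.55 and 8.24 CPM of Dppa2, 25.9-fold below the E4.5 epiblast-like mean. For Dppa4 they held 26.3 and 28.6 CPM, 5.86-fold below it. In embryo 2, 365 of the 385 pooled Dppa2 reads came from 2 unnamed cells. Of these 60 cells, 17 had Dppa2 reads (12 of 36 in embryo 1 and 5 of 24 in embryo 2) and 45 had Dppa4 reads (30 of 36 and 15 of 24). Mesoderm-like cells, the migrating progeny of the primitive streak, had almost no reads of either partner. None of the 23 had a Dppa2 read (3 cells would be 13.04% of the class, and the exact 95% upper bound is 14.8%), and 1 had a single Dppa4 read. In the same embryo, 12 of 16 epiblast-like cells had Dppa4 reads. The mesoderm-like cells had a lower median depth, 712549 reads against 1345730 in epiblast-like cells, and after thinning to equal depth 7 of the 16 and 0 of the 23 had Dppa4 reads. Pou5f1 was read in all 23 mesoderm-like cells, with a median of 1398 CPM.

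In 3 of the 8 E5.5 endoderm-like cells Dppa2 was high, while Dppa4 was near 0 in all 8. Of the 8 cells, 4 had Dppa2 reads, at 302, 300.0, 85.9 and 0.391 CPM, and the 3 highest had no Dppa4 read. The highest Dppa4 value in any of the 8 was 3.43 CPM. All 8 came from 1 embryo. They had 1165240 to 3352786 reads each, but their median of 4223 genes was the lowest of any class, and the part of this in the missing reads was not tested. At E6.5 the endoderm-like cells had 8 of 15 with Dppa2 reads and 10 of 15 with Dppa4 reads, at sums of 4.81 and 19.8 CPM in embryo 1; embryo 2 gave only 2 such cells.

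At E4.5 both partners were lower in endoderm-like than in epiblast-like cells on average. The epiblast-like mean of Dppa2 exceeded the endoderm-like mean in 5 of 5 embryos, by 1.11, 2.77, 2.88, 2.68 and 1.52, a mean difference of 2.19 ± 0.82 on the log2(CPM+1) scale (SD, n = 5). For Dppa4 the differences were 3.73, -0.36, 2.43, 3.06 and 2.39, with a mean of 2.25 ± 1.56. Embryo 2, with 4 cells in each class, was thus the exception for Dppa4 on this scale, while its summed counts were higher in the epiblast-like cells (92.5 against 82.4 CPM), as in the other 4 embryos. The embryo means of the 2 classes did not overlap for Dppa2 (highest endoderm-like 5.42, lowest epiblast-like 5.84), and they did overlap for Dppa4. On summed counts, the Dppa2 difference was smaller, 1.14.

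**Figure D3:**
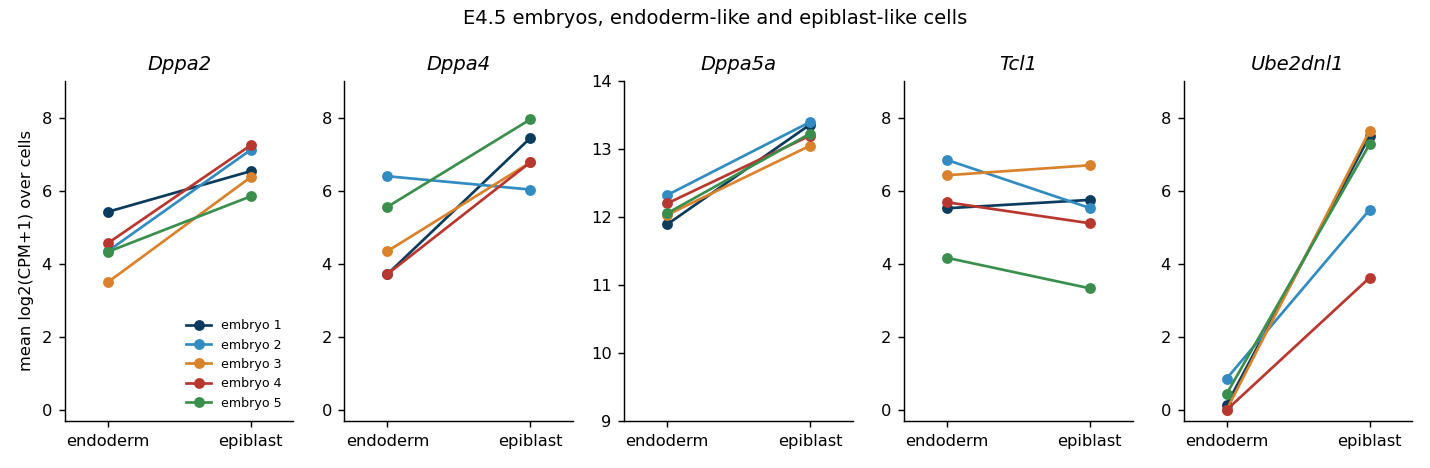
Mean log2(CPM+1) over the endoderm-like and the epiblast-like cells of each E4.5 embryo, 1 line per embryo; the Dppa5a axis covers 9 to 14 and the other axes start near 0. All 5 lines rise toward the epiblast-like cells for Dppa2, Dppa5a and Ube2dnl1, 4 do for Dppa4 and 2 do for Tcl1.

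The endoderm-like cells of E4.5 were made of a cluster of 36 cells from all 5 embryos and a cluster of 15 cells from embryos 1, 4 and 5 with fewer genes (median 4889 against 7307). Dppa2 was read in 33 of 36 and 9 of 15, and Tcl1 in 34 of 36 and 10 of 15. The mean level of Dppa5a was 11.95 in the 36 cells and 12.43 in the 15. On summed counts Dppa4 (38.8 and 120.1 CPM) and Tcl1 (79.2 and 109.8 CPM) were also higher in the 15 cells. Dppa2 (87.3 and 42.5 CPM) and Ube2dnl1 (0.95 and 0.036 CPM) were lower there. As over the E5.5 cells, the shares with a read of the less abundant genes moved with the number of genes per cell.

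Within a class the partners followed each other weakly or not at all from cell to cell. Over cells, Pearson's r between Dppa2 and Dppa4 on the log2(CPM+1) scale was -0.15 in the 24 E4.5 epiblast-like cells, 0.00 in the 51 E4.5 endoderm-like cells, 0.11 in the 51 E5.5 epiblast-like cells and 0.29 in the 31 E6.5 epiblast-like cells. Spearman's rho over the same classes was 0.0035, -0.017, 0.27 and 0.18. These are descriptions over cells that share embryos and libraries.

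At E4.5 Tcl1 was read in both classes. It was found in 23 of 24 epiblast-like cells (95.8%) and 44 of 51 endoderm-like cells (86.3%). The epiblast-like sums of embryos 1 to 5 held 71.4, 114, 125, 43.7 and 15.3 CPM, and the endoderm-like sums held 123, 128, 98.2, 101 and 71.4 CPM. The classes overlapped, and the endoderm-like sum was the higher in 4 of 5 embryos. On the scale of log2(CPM+1) means over cells, the epiblast-like minus endoderm-like difference was -0.44 ± 0.69 (SD, n = 5) and positive in 2 of 5 embryos, so the sign was not shared. It was -0.54 with prefix P1 and -0.38 with P2.

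After E4.5 Tcl1 was near or at 0 in every class. None of 51 E5.5 epiblast-like cells had a read among 79265663 reads (3 cells would be 5.88% of the class, and the exact 95% upper bound is 6.98%). None of the 83 E6.5 cells had one, and 1 of 8 E5.5 endoderm-like cells had a single read. Its E4.5 epiblast-like mean of 74.02 CPM was 1956-fold above the floor of 3 counts over the E5.5 epiblast-like cells. It was 1208-fold above that floor over the E6.5 ones. The floor covers counting error of reads only, and 1 cell with amplified transcripts can hold many more reads. These folds are therefore no bound on the transcript level. Of all Tcl1 reads in kept cells, 6938 of 6939 came from E4.5.

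Ube2dnl1 was the member closest to an on-off mark of the E4.5 epiblast. It was read in 22 of 24 epiblast-like cells (91.7%) and 4 of 51 endoderm-like cells (7.84%, exact 95% interval 2.18% to 18.9%). The epiblast-like sums of embryos 1 to 5 held 199, 44.8, 201, 53.2 and 181 CPM, while the highest endoderm-like sum was 1.72 CPM and embryos 3 and 4 had no endoderm-like read. The embryo sums of the 2 classes did not overlap, although single cells did. The difference in means was 7.36, 4.62, 7.63, 3.62 and 6.83 on the log2(CPM+1) scale, with a mean of 6.01 ± 1.79 (SD, n = 5), and 5.99 and 6.03 within the P1 and P2 embryos.

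The lower epiblast-like values came from different patterns of cells. In embryo 2 all 4 cells had reads and the highest stood at 70.1 CPM, while in embryo 4 the value ranged from 0 in 2 of 6 cells to 190.3 CPM. Of the 4 endoderm-like cells with a read, the highest reached 41.3 CPM with 27 reads. There was no Ube2dnl1 read in any of the 59 E5.5 or 83 E6.5 cells. The E4.5 epiblast-like mean of 136 CPM was 3587-fold above the floor of the E5.5 epiblast-like cells and 2216-fold above that of the E6.5 ones. As for Tcl1, the floor covers counting error only, so these folds are no bound on the transcript level.

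**Figure D4:**
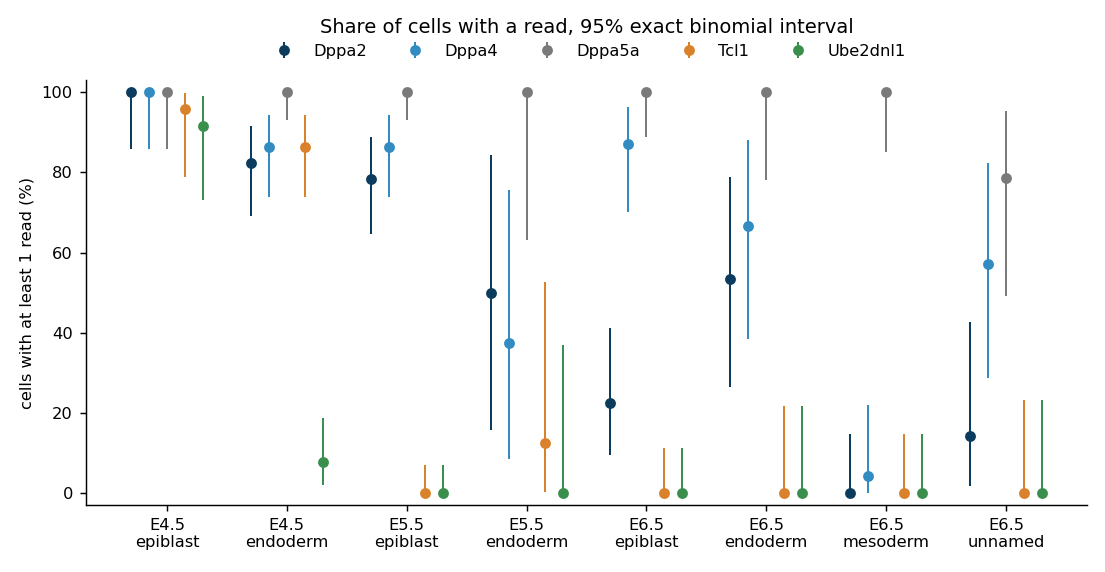
Percent of cells with at least 1 read of each gene by stage and class, with the exact 95% binomial interval, which covers counting error only. Ube2dnl1 stands at 91.7% in E4.5 epiblast-like cells and 7.84% in endoderm-like cells, Tcl1 at 95.8% and 86.3%, and both at 0% in all E6.5 classes, where Dppa4 stands well above Dppa2 in the epiblast-like cells.

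Several of these transcripts resemble others, and how reads mapping to several places were treated is not given in the sources used here. Ube2dnl2, 1641 bases from Ube2dnl1, matched it at 89.9% identity over 744 bases. It had reads in 7 of 24 E4.5 epiblast-like cells, 6 of which also had Ube2dnl1, and in none of the 51 endoderm-like cells or of the later cells, so its reads lay in the same stage and class. Pseudogene transcripts at 85% identity or more over at least 100 bases numbered 8 for Dppa2 and 2 for Dppa4, and none of these is counted in the table. For Dppa5a 11 transcripts matched, among them those of the counted coding genes Pigp (95.9% over 417 bases, 35858 reads in kept cells) and Gm10112 (14 reads). The counts of the 4 genes with such copies are uncertain to that extent. Tcl1 had no such match.

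The relatives and neighbors differed in how far they went with the members. The Tcl1b genes, relatives of Tcl1 next to it, had no read in E4.5 or E5.5 epiblast-like cells, and Mtcp1, the other family member, stood between 0.89 and 3.46 CPM at all 3 stages. Of the broadly expressed E2 D enzymes, Ube2d3 held 1158 CPM in E4.5 epiblast-like cells, 1390 at E5.5 and 382 at E6.5, Ube2d2a 95.7, 72.3 and 84.2 CPM and Ube2d1 20.7, 35.03 and 28.6 CPM. None of the 5 E2 D relatives was called by edgeR's quasi-likelihood test in either comparison with E4.5 (0 of 5 each; at an unadjusted p under 0.05, 1 was lower at E5.5 and 3 at E6.5, and DESeq2 called 1 and 2 lower), read against 13260 tested genes, of which 0.113% were called higher and 0.264% lower at E5.5. At E6.5 those shares were 0.807% and 1.7%. Each E5.5 call sets 1 embryo against 5, with the error pooled over the stages, so it compares that embryo with the E4.5 embryos and cannot tell embryo and stage apart. Their median log2 change was -0.32 at E5.5 and -1.64 at E6.5, against 0.00 and 0.13 over all genes tested.

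Of the other Dppa genes and KH-domain relatives, 1 of 4 tested genes was called lower at E5.5 and 3 of 4 at E6.5, with none higher by edgeR, by DESeq2 or at an unadjusted p under 0.05. DESeq2 called 3 and 4 of them lower, and as many were lower at an unadjusted p under 0.05 by edgeR. Khdc3, a KH-domain protein of the subcortical maternal complex of the oocyte, had 380.4 CPM at E4.5 and 0.013 and 0.018 CPM at E5.5 and E6.5 (edgeR adjusted p = 0.000744 and 6.48e-06). Ooep, its partner and the neighbor of Dppa5a, had 213, 33.5 and 4.62 CPM, with adjusted p = 0.0912 at E5.5 and 8.86e-05 at E6.5. Dppa3, which protects the maternal genome from demethylation, had 189, 88.3 and 5.12 CPM, with adjusted p = 0.706 and 0.00245. The median change of the 4 was -5.92 and -7.40, or -4.67 and -5.81 with Khdc1a, which had no read in the later epiblast-like cells, at its bound.

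The naive pluripotency genes, transcription factors and enzymes of the preimplantation epiblast, included many that were lower after E4.5. Of 12 tested, 6 were called lower at E5.5 and 8 at E6.5, none was called higher by edgeR, by DESeq2 or at an unadjusted p under 0.05, and the median change was -6.74 and -4.67, or -6.62 and -4.36 with the genes that had no read at their bound. DESeq2 called 9 and 10 of them lower, and as many were lower at an unadjusted p under 0.05 by edgeR. Esrrb, an orphan nuclear receptor, had 79.3, 0.013 and 6.53 CPM over the 3 stages (edgeR adjusted p = 0.00377 and 0.0111), and Fbxo15, an F-box protein, had 67.2, 0.088 and 0.969 CPM (edgeR adjusted p = 0.0132 and 0.00155). Tbx3, a T-box factor, had 37.3 CPM, no read at E5.5 and 12.9 CPM at E6.5 (edgeR adjusted p = 0.017 and 0.325). Klf2, a transcription factor of ground-state pluripotency, went from 73.2 to 0.44 and 1.23 CPM, with edgeR adjusted p = 0.0177 and 0.00127. Tet2, a 5-methylcytosine oxidase, went from 60.7 to 0.50 and 0.82 CPM and was called at E6.5 only (adjusted p = 0.063 and 0.00383). Without 1 of the E6.5 embryos, 5 or 4 of the 12 were called lower at E6.5.

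The formative and primed epiblast genes gave 1 call of 8, higher, in each comparison, with medians of 0.88 and 1.55. DESeq2 called 1 and 2 higher, 2 and 4 were higher at an unadjusted p under 0.05 by edgeR, and none was lower by either. The edgeR call was the de novo methyltransferase Dnmt3b, with 379, 1695 and 1524 CPM (log2 change 2.25 ± 0.33 SE and 1.99 ± 0.27 SE, edgeR adjusted p = 0.0132 and 0.00146). In the list of DNA methylation maintenance genes, the maintenance methyltransferase Dnmt1 and its recruiter Uhrf1 were not called by edgeR. The third gene of the list, Dnmt3l, is a cofactor of the de novo enzymes and no maintenance enzyme. It went from 486 to 50.4 and 9.12 CPM (edgeR adjusted p = 0.0596 and 0.000118), and the medians of the 3 genes were -0.70 and -0.59. At E5.5 none of the 3 was called by edgeR, while Dnmt3l was lower at an unadjusted p under 0.05 and was called lower by DESeq2 and by edgeR without the filter on low counts. 

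None of 20 genes of the PI3K and Akt pathway was called by edgeR (at an unadjusted p under 0.05, the E5.5 comparison had 2 genes up and 1 down and the E6.5 comparison 2 up and 3 down, and DESeq2 called 1 and 3 lower), with medians of -0.35 and -0.59. Foxo3, a factor that Akt keeps out of the nucleus, had means of 44.6, 10.52 and 4.34 CPM. The E4.5 embryos ranged from 0 to 94.9 CPM, so both later values lay within their range. Akt1, a kinase that Tcl1 can bind, had 3.59, 4.64 and 22.8 CPM. Of 15 two-cell-stage genes in the table, the programme that Dppa2 and Dppa4 activate in stem cells, none passed the filter on low counts. Only Zscan4d had reads in the epiblast-like cells of any stage, at 0.56 CPM at E4.5. The likeness of these genes to other transcripts was not compared, and the treatment of reads mapping to several places is not given. A count of 0 here need not mean that no transcript was present.

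**Figure D5:**
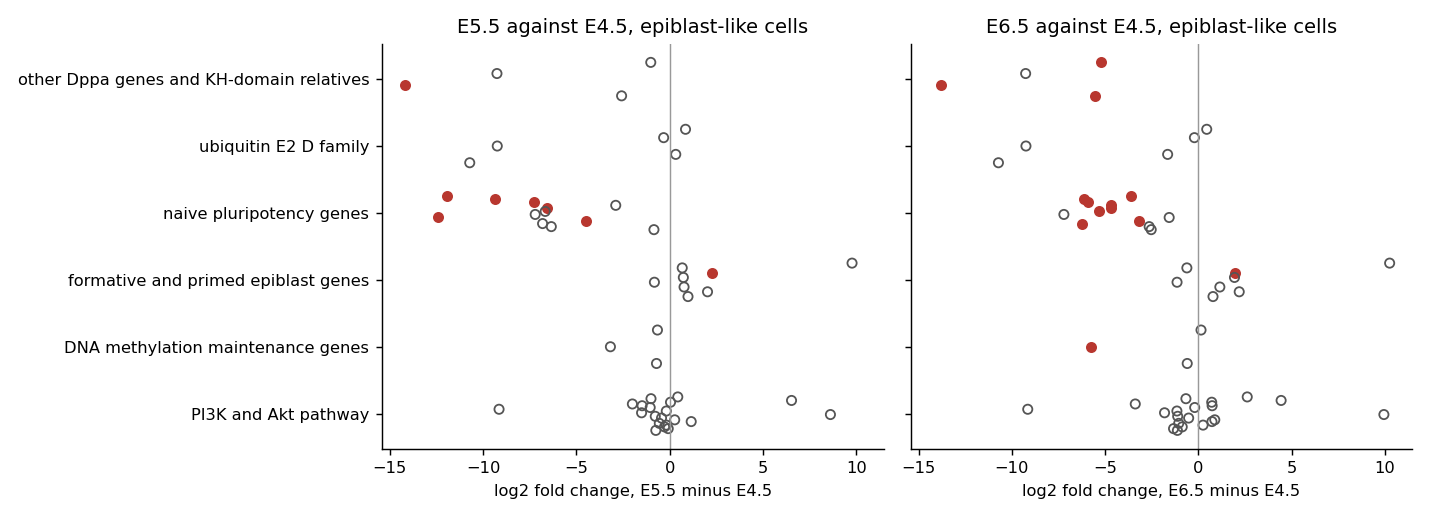
Fitted log2 fold changes of the genes of each list in epiblast-like cells, E5.5 minus E4.5 (left) and E6.5 minus E4.5 (right); each circle is a gene, filled red where the edgeR adjusted p was under 0.05, and the 5 members are left out. Of 12 naive pluripotency genes, 6 and 8 are filled and lie left of 0, and no PI3K and Akt pathway gene is filled; changes beyond about 9 belong mostly to genes with no or almost no read in 1 group, whose fitted size depends on the prior count.

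The genes most alike to each member were ranked by Spearman's rho over the summed counts of 18 embryo-by-class units with at least 3 cells, among 7961 genes with a mean of at least 10 CPM. Units of 1 embryo share its handling and depth, and the rho values are a description. Dppa2 was most like Dppa3 (0.92), the TGF-beta family ligand Gdf3 (0.88) and Cebpzos (0.88). Dppa4 was most like the chromatin remodeler Smarcad1 (0.89), Gml2 (0.86) and Zfp600 (0.86), while its rho with its partner Dppa2 was 0.64. Dppa5a was most like Gpa33 (0.95), Khdc3 (0.94) and Zfp978 (0.93). Tcl1 was most like the cell cycle kinase Cdk2 (0.92), the naive factor Klf5 (0.91) and Ss18l2 (0.90), and Ube2dnl1 like Gml2 (0.91), Plpp1 (0.89) and the acetyltransferase Kat6b (0.88). Gml2 was the single gene named for 2 members, Dppa4 and Ube2dnl1, whose own rho was 0.84.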

How the data were processed

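The series holds scM&T-seq libraries of mouse embryo cells, and only the RNA was used here. The submitters' processing notes name Trim Galore 0.4.2 and 0.4.5, HISAT2 2.1.0, featureCounts, R 3.4.3 and GRCm38, with no role for each. The deposited values are whole-number counts of reads per gene and cell; annotation, strand and multi-mapping settings are not given in the sources used here. CPM divides by the total count of a cell, and levels are log2(CPM+1). Cells were clustered (scanpy 1.11.5; 2000 variable genes, 20 components, 15 neighbours, Leiden resolution 0.5), with settings settled after trial runs on these data; at least 3 markers, raised by 1 on the log2 scale and read in 50% of cells, named a class. Doublets were not called. Epiblast-like counts were summed per embryo and stages compared in edgeR 4.0.16 (TMM, filterByExpr, quasi-likelihood test, Benjamini-Hochberg adjustment over 13260 genes, threshold 0.05); the error was pooled over stages, so E5.5, with 1 embryo, was taken to vary like the others. In simulated E5.5 against E4.5 counts 24% of 16-fold and 9% of 4-fold changes were recovered (12519 genes), and at E6.5 42% and 21% (12496 genes). Intervals are Clopper-Pearson at 95% and floors are 3 counts; both cover counting error only, as reads carried no molecular identifiers. Transcripts were compared with blastn 2.17.0+. Named genes are the 5 members, relatives, list genes reaching 10 CPM or called (at most the 3 largest changes each way), and the 3 most alike to each member. The members and lists were chosen with earlier results of these data known. Alternatives were other counts, scalings, filters, class rules, resolutions and left-out embryos, with DESeq2 1.42.0. The labels give 5 embryos at E4.5. Zscan4a was not matched in the table.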

Additional observations from a re-analysis of the deposited data

Results flagged for a closer look

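The cells left out for having under 2000 genes, although they had at least 50000 reads, held values of 4 of the 5 genes above any kept cell of their stage. One E4.5 cell of embryo 5 with 793 genes and 313199 reads had 2068 Ube2dnl1 reads, or 6603 CPM, against at most 392.5 CPM in a kept E4.5 cell. Of 19 such E5.5 cells, 3 had Dppa2 reads, the highest at 1622 CPM against 538.2 in kept cells. Dppa4 had reads in 5 of the 19, the highest at 1820 CPM against 516.1. Dppa5a had reads in 18 of the 19, the highest at 30532 CPM against 11482. Tcl1 had none in these cells at any stage, and Ube2dnl1 had none at E5.5.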

How the results depend on the processing

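The count of genes changed in epiblast-like cells depended on the fit far more than the member levels did. At E5.5, where edgeR called 15 genes higher and 35 lower, DESeq2 called 87 and 485, edgeR without the filter on low counts 180 and 146, and all kept cells in place of the epiblast-like ones 141 and 131. At E6.5, where it called 107 higher and 226 lower, these gave 304 and 702, 448 and 404, and 607 and 401, and classes by marker score gave 200 higher. Leaving out 1 embryo gave 7 to 39 higher and 21 to 55 lower at E5.5, and 23 to 172 higher and 81 to 257 lower at E6.5. A fit of E6.5 with a replicate block by embryo number called 221 higher and 368 lower; equal numbers name different embryos, whose deviations correlated at -0.00405 and 0.0173, so the numbers do not pair them. All 5 members lay below every E4.5 embryo at E5.5 in means over cells, but 3 did on summed counts, with or without TMM scaling. On summed counts Dppa2 and Dppa4 overlapped the E4.5 range. The share of all genes lying below every E4.5 embryo was not counted, and the members were chosen by these levels. Such counts of members are therefore no result particular to them. Of the alternative values of member differences, 180 moved by less than the spread over embryos and 25 by more. None of these changed sign where a direction had been given. Leaving out 1 of the 5 E4.5 embryos cannot move their mean by as much as that spread. The other resolutions left the E4.5 and E5.5 classes as they were. Many of the 180 values could therefore not have moved by more, and their number is no measure of robustness. The pooling of all E6.5 cells outside the mesoderm-like class, chosen after seeing the data, kept all 5 members below every E4.5 embryo. The share over all genes was not counted there either. No E6.5 comparison could be made at resolution 0.3, which gave no epiblast-like class. The number of cells limits what a count of 0 can show in the smaller classes.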
